A study of Mus musculus with 4 samples.

Results

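The solute carriers are the largest superfamily of membrane transporters, and 205 of their genes were followed here in mouse bone marrow-derived dendritic cells exposed to sulforaphane. Members were genes measured by a probe set with exactly 1 gene symbol, where that symbol begins with Slc, a family number, the letter a and a member number. A gene with several probe sets was read from the brightest, and it was kept if the mean log2 value of that probe set was above 2.91, the 40th percentile of the arrays' probe set means. Of 334 symbols of this form, 22 belong to the zinc carrier families Slc30 and Slc39 and were left out, as were Slc40a1, Slc48a1, Slc11a1, Slc7a11, Slc7a2, Slc2a1 and Slc16a3. Of the 305 that remained, 205 passed the filter and 100 did not. The transporters among them fall into 44 families, and the 205 members are part of 14652 genes tested. They were sorted into substrate classes from textbook knowledge of each carrier, with earlier results of these data known. The level filter was the only measured value used as a criterion.

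The cells were grown from the marrow of C57BL/6 mice, harvested on day 7 and held for 2 h with 0.3 µM sulforaphane dissolved in DMSO, or with DMSO alone. Sulforaphane is a reactive isothiocyanate of broccoli and its relatives, known to turn on genes controlled by NRF2. Both groups then received 100 ng/ml lipopolysaccharide (LPS), a bacterial activator of dendritic cells, for 1 h, so every value below comes from LPS-stimulated cells. Each group had 2 samples on 1 array each. Nothing in the labels says that replicates came from separate mice or cultures, so the p-values cover the spread among these arrays only, and that spread may be technical.

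Solute carriers move nutrients, ions, vitamins, neurotransmitters and metabolites across the plasma membrane and the membranes of lysosomes, the Golgi and mitochondria, mostly by facilitated diffusion or by coupling to an ion gradient. Family numbers follow sequence similarity, and so a family often shares a type of substrate: the SLC2 carriers move sugars, the SLC7 carriers amino acids, the SLC25 carriers metabolites of the inner mitochondrial membrane. Dendritic cells activated through Toll-like receptors are known to take up more glucose. The comparison asks which carriers differ between sulforaphane and DMSO in activated cells, and whether those that differ share a substrate.

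Median log2 values of the arrays ran from 3.24 to 3.27. DMSO replicate 1 had a narrower spread than the others, with an interquartile range of 3.41 against 3.61 to 3.62. Of 12 dendritic cell markers, 10 had a usable probe set and all 10 lay above the filter; Cd74 and Clec9a had none. The 10 summed log2 values came to 89.9 and 91.1 with DMSO and 88.5 and 88.7 with sulforaphane, and 5 of the 10 lay above 0 and 5 below. The differences ran from -0.87 for Irf4 and -0.64 for Batf3 to 0.16 for H2-Aa and 0.26 for H2-Ab1, with a median of -0.093. At an unadjusted p under 0.05 by limma, 4 of the 10 were lower (40%, against 5.87% of all genes) and 0 were higher. Those 4 were Irf4, Batf3, Flt3 and Zbtb46. Of 8 macrophage and monocyte markers 7 were measured and all 7 lay below 0 (summed level 71.6 and 71.6 against 70.5 and 70.5), as did 7 of 8 mast cell and basophil markers (58.5 and 57.9 against 56.1 and 57.3). Of the neutrophil markers 7 of 8 lay above 0. Of the erythroid markers 0 of 6 were tested. The part of these cell types in the differences below was not tested, and in bulk RNA fewer cells of a type and less RNA per cell cannot be told apart.

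No solute carrier passed an adjusted p of 0.05 between sulforaphane and DMSO (limma over all 14652 genes, Benjamini-Hochberg adjustment), and the members as a whole were centred where all genes were. Among all genes 19 passed, or 0.130%. At an unadjusted p under 0.05 there were 31 solute carriers, or 15.1% of 205, against 13.0% of all genes tested. Of these, 18 were higher with sulforaphane (8.78%, against 7.09% of all genes) and 13 were lower (6.34%, against 5.87%). The median log2 difference, sulforaphane minus DMSO, was 0.020 over the members and 0.018 over all genes, and 111 members lay above 0 and 94 below (54.1% above and 45.9% below, against 54.2% and 45.8% of all genes). These counts depend on single arrays, and the shares of all genes shifted with them. Without DMSO replicate 1, 10 were higher and 15 lower (5.27% and 6.56% of all genes), and without DMSO replicate 2, 25 and 15 (12.1% and 7.39%). Leaving out sulforaphane replicate 1 gave 11 and 3 (4.32% and 3.5% of all genes), and leaving out sulforaphane replicate 2 gave 8 and 6 (3.4% and 3.67%). Of the 13 lower carriers 2, Slc1a6 and Slc17a7, had a sulforaphane mean below the filter and were tested only through their DMSO values.

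For most carriers the spread among the arrays was small enough to bound the difference between these arrays. Like the p-values, the intervals cover that spread only, and it may be technical. The 95% interval lay inside 1.5-fold in either direction for 155 of the 205 members (75.6%, against 74.1% of all genes). They include 73 of the 107 members below the median level of all genes, and carriers near the filter have little signal above background. Differences ran from -0.69 to 0.90, with a median size of 0.126, the same as over all genes tested (0.126). In 90 members both arrays of one group lay above both arrays of the other (43.9%, against 43.6% of all genes), 49 of them higher with sulforaphane (23.9%, against 24.0% of all genes) and 41 lower (20.0%, against 19.5%). Carriers above the median level of all genes had smaller differences than dimmer ones, with median sizes of 0.097 and 0.147, as all genes did (0.111 and 0.142).

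**Figure D1:**
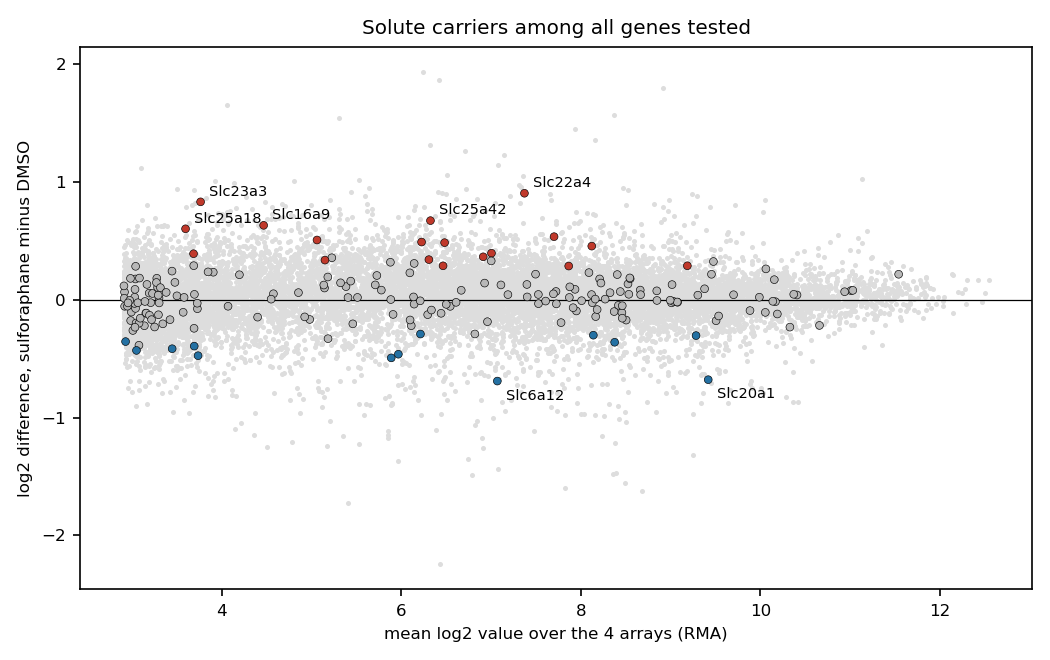
Log2 difference, sulforaphane (SFN) minus DMSO, of each of the 205 solute carriers on the vertical axis against its mean log2 level over the 4 arrays on the horizontal axis. Outlined red and blue points are the 18 higher and 13 lower carriers with an unadjusted p under 0.05, outlined grey points the other carriers and pale dots the remaining genes tested; the 7 carriers beyond 1.5-fold without overlap are named, and they lie within the range of the other genes.

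The 7 carriers at least 1.5-fold apart without overlap were 3.41% of the members, against 2.81% of all genes, with 5 higher (194 of all genes, 1.32%) and 2 lower (1.49% of all genes). They come from 5 substrate classes: Slc22a4 and Slc6a12 carry organic cations and betaine, Slc25a42 and Slc25a18 are mitochondrial, Slc23a3 belongs to the ascorbate carrier family, Slc20a1 carries phosphate and Slc16a9 was given no substrate here. Without DMSO replicate 2 the count was 8 higher and 3 lower (3.29% and 2.16% of all genes), and without sulforaphane replicate 1 it was 6 and 1 (2.07% and 1.77%). Without sulforaphane replicate 2 it was 4 and 5 (1.67% and 1.88%).

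The stretches of DNA around the annotated start sites of 4 of these genes are shown because the genes carry the most separated values in each direction. Each is a RefSeq window of 300 bases on GRCm38.p6, written 5′ to 3′ on the strand of the gene, and capitals mark matches to the motifs described at the end of this section. In Slc22a4 (chr11:54028055-54028354, minus strand) and Slc20a1 (chr2:129198523-129198822, plus strand, the first of 2 windows) they mark the E-box CACGTG. In Slc23a3 (chr1:75133841-75134140, minus strand) they mark the core of an amino acid response element, and in Slc6a12 (chr6:121342324-121342623, plus strand, the first of 5 windows) an NF-kB site.
Slc22a4: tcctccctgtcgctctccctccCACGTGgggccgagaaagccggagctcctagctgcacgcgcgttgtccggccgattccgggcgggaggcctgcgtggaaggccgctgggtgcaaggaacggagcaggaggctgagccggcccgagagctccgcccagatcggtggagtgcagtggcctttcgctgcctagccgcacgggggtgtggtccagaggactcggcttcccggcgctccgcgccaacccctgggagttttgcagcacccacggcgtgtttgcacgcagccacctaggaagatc
Slc23a3: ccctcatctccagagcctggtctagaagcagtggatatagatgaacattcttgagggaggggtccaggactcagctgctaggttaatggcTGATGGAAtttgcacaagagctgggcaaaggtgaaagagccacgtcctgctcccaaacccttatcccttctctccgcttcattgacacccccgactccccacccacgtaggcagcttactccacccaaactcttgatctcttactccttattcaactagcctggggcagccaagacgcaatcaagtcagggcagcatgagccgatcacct
Slc20a1: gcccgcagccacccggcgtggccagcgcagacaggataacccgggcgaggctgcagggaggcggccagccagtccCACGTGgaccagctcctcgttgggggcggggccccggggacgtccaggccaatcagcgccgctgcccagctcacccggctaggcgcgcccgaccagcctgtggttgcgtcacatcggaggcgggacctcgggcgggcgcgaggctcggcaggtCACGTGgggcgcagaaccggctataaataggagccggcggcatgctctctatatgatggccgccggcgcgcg
Slc6a12: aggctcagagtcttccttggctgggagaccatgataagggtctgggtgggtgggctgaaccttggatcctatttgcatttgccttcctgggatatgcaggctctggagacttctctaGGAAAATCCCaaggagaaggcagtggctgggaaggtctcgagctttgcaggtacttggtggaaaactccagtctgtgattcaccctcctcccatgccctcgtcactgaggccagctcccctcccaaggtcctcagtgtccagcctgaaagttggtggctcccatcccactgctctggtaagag

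Slc22a4, a plasma membrane carrier of organic cations that takes up the antioxidant ergothioneine, had the largest difference of any member. Its log2 level was 6.76 and 7.08 in the DMSO arrays and 7.84 and 7.81 in the sulforaphane arrays. Both sulforaphane arrays were clearly above both DMSO arrays, and the gap between the groups was larger than the gap within either. The difference was 0.90 ± 0.14 (SE, n = 2 per group; 95% interval 0.56 to 1.25), or 1.87-fold, with an adjusted p of 0.0822 by limma. It ranked 116 of all genes by p.

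Slc23a3, an ascorbate family member whose own substrate is less settled, had the smallest p of any member, at rank 63 of all genes. Its level was 3.40 and 3.30 with DMSO and 4.15 and 4.21 with sulforaphane, close above the filter. The groups were far apart compared with the spread inside each. The difference was 0.83 ± 0.11 (interval 0.56 to 1.1), or 1.78-fold, with an adjusted p of 0.0581.

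Both of the mitochondrial carriers in this set were higher with sulforaphane. Slc25a42 brings coenzyme A into the matrix in exchange for adenine nucleotides; its level was 5.97 and 6.01 with DMSO and 6.55 and 6.77 with sulforaphane. The difference was 0.67 ± 0.12, or 1.59-fold, with an adjusted p of 0.109. Slc25a18, a mitochondrial glutamate carrier, was at 3.38 and 3.21 with DMSO and 3.81 and 3.99 with sulforaphane. The DMSO arrays of both genes lay below both sulforaphane arrays, and Slc25a18 differed by 0.60 ± 0.13, or 1.52-fold (adjusted p = 0.148).

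Slc16a9 belongs to the monocarboxylate family but is not an established carrier of lactate or pyruvate. Its brightest probe set read 4.09 and 4.21 with DMSO and 4.68 and 4.88 with sulforaphane, without overlap. The difference was 0.63 ± 0.12, or 1.55-fold, with an adjusted p of 0.128. A second probe set of the gene, below the filter, differed by -0.14, and the mean of the probe sets differed by 0.25.

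The other two carriers beyond 1.5-fold were lower with sulforaphane. Slc6a12, which takes up the osmolyte betaine and the transmitter GABA, read 7.38 and 7.45 with DMSO and 6.59 and 6.86 with sulforaphane. Both sulforaphane arrays lay below both DMSO arrays, by a difference of -0.69 ± 0.13 (interval -1.01 to -0.37) and an adjusted p of 0.125. Slc20a1, a sodium-coupled phosphate importer of the plasma membrane, read 9.64 and 9.87 with DMSO and 9.16 and 8.99 with sulforaphane. Here too the groups were apart, by -0.68 ± 0.13 (interval -1.0 to -0.35), with an adjusted p of 0.128. The fold was 1.61 for Slc6a12 and 1.60 for Slc20a1.

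Some of these genes passed the adjusted threshold under 3 other settings. With an intensity trend in the estimate of the spread, 4 members passed: Slc22a4 (adjusted p = 0.0158), Slc20a1 (0.0244), Slc23a3 (0.0436) and Slc6a12 (0.0436). After a second quantile normalization 2 passed, Slc23a3 (0.0421) and Slc22a4 (0.046). With the filter at the 60th percentile 1 passed, Slc22a4 (0.0459), and Slc23a3 was not tested there. The share of all genes that passed was larger in these settings too, against 0.130% in the main fit. It was 1.7% with the trend, 0.724% after the second normalization and 1.3% with the 60th percentile filter.

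**Figure D2:**
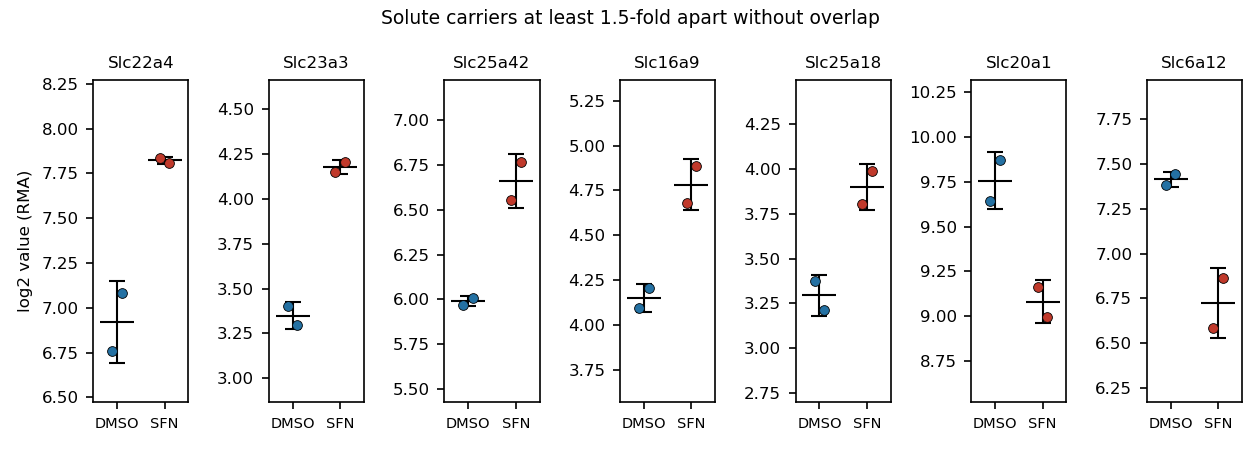
Log2 level of the 7 carriers beyond 1.5-fold without overlap, with a panel for each gene, a point for each of the 2 DMSO (blue) and 2 sulforaphane (SFN, red) arrays, and bars for the mean and SD of each group. All panels span the same number of log2 units, and in every panel both points of one treatment lie beyond both of the other, upward with sulforaphane in 5 panels and downward in Slc20a1 and Slc6a12.

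By substrate, class medians lay close to 0 for the large classes. The mitochondrial carriers had a median difference of 0.080 over 41 members, the amino acid and peptide carriers 0.037 over 38, the carriers of inorganic ions 0.014 over 32 and the carriers of organic cations, anions and amines -0.054 over 25. Among classes of 4 to 14 members the highest median was that of phosphate and sulfate (0.152, 4 members), followed by vitamins and cofactors (0.082, 11 members), and the lowest that of iron, copper and urea (-0.106, 5 members). All 6 nucleoside carriers lay below 0 and all 3 nucleotide sugar carriers above, with a median of 0.112 for the latter. The small classes depend on single arrays. Without DMSO replicate 1 the phosphate and sulfate median was 0.091. Without sulforaphane replicate 2 it was 0.014 and that of iron, copper and urea was -0.035. The medians also depend on processing. After a second quantile normalization that of vitamins was 0.0033 and that of mitochondrial carriers 0.031, against -0.0064 over all genes. Without the level filter the phosphate and sulfate median was 0.017, and with the filter at the 60th percentile, which left 3 members, it was 0.020. The reported median of 0.152 includes Slc26a1, whose DMSO mean was below the filter.

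**Figure D3:**
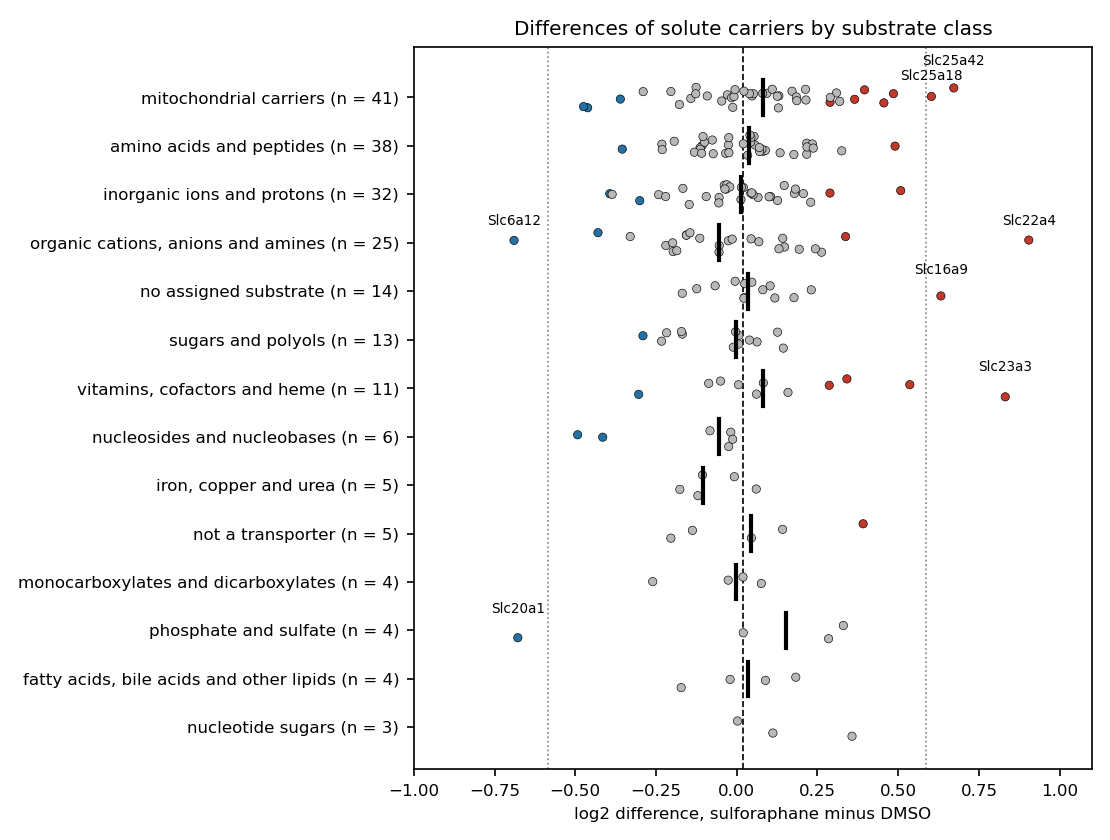
Log2 difference, sulforaphane (SFN) minus DMSO, of every solute carrier by substrate class, a point per gene. Black bars are the class medians for classes of at least 4 members, red and blue points have an unadjusted p under 0.05, the dashed line is the median of all genes (0.018) and dotted lines mark 1.5-fold; the bars lie between -0.106 and 0.152.

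The mitochondrial SLC25 family exchanges nucleotides, carboxylates, amino acids and cofactors between cytosol and matrix. It held 10 of the 31 carriers with an unadjusted p under 0.05, which is 24.4% of its 41 members against 13.0% of all genes; 7 were higher with sulforaphane and 3 lower. The groups did not overlap in 25 of 41 (61.0%, against 43.6% of all genes), 17 higher and 8 lower. The count of 10 was 5 without DMSO replicate 1, 16 without DMSO replicate 2, 5 without sulforaphane replicate 1 and 5 without sulforaphane replicate 2, while the share of all genes at that p was 11.8%, 19.5%, 7.82% and 7.07% in turn.

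The SLC25 carriers of cofactors, glutathione and carnitine stood highest. Of 8 members 7 lay above 0, their median difference was 0.31, and in 5 (62.5%) the groups did not overlap, all of them higher with sulforaphane, against 43.6% of all genes without overlap and 24.0% higher without overlap. Next to Slc25a42, Slc25a51, the carrier that brings NAD into the matrix, read 6.03 and 6.45 with DMSO and 6.85 and 6.60 with sulforaphane, a difference of 0.49 ± 0.18 (adjusted p = 0.332). Slc25a32, a carrier of folate and FAD, read 6.73 and 6.88 against 7.14 and 7.26, a difference of 0.40 ± 0.12 (adjusted p = 0.26). In Slc25a51 the gap between the groups was smaller than the spread inside either, while in Slc25a32 it was larger.

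The other members of this subgroup were smaller in difference. Slc25a26, which imports S-adenosylmethionine for methylation in the matrix, read 5.55 and 5.89 with DMSO and 5.95 and 6.12 with sulforaphane (difference 0.32). Slc25a40, which shares glutathione import with Slc25a39, read 5.84 and 6.14 against 6.29 and 6.31 (0.31). In both, the groups were separate but the DMSO arrays were spread. Slc25a39 itself differed by 0.04, Slc25a20, the carnitine-acylcarnitine carrier, by 0.11 and Slc25a16 by -0.01, and in these the groups overlapped. The subgroup was defined by cargo with earlier results of these data known, and its median was 0.155 without DMSO replicate 1.

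**Figure D4:**
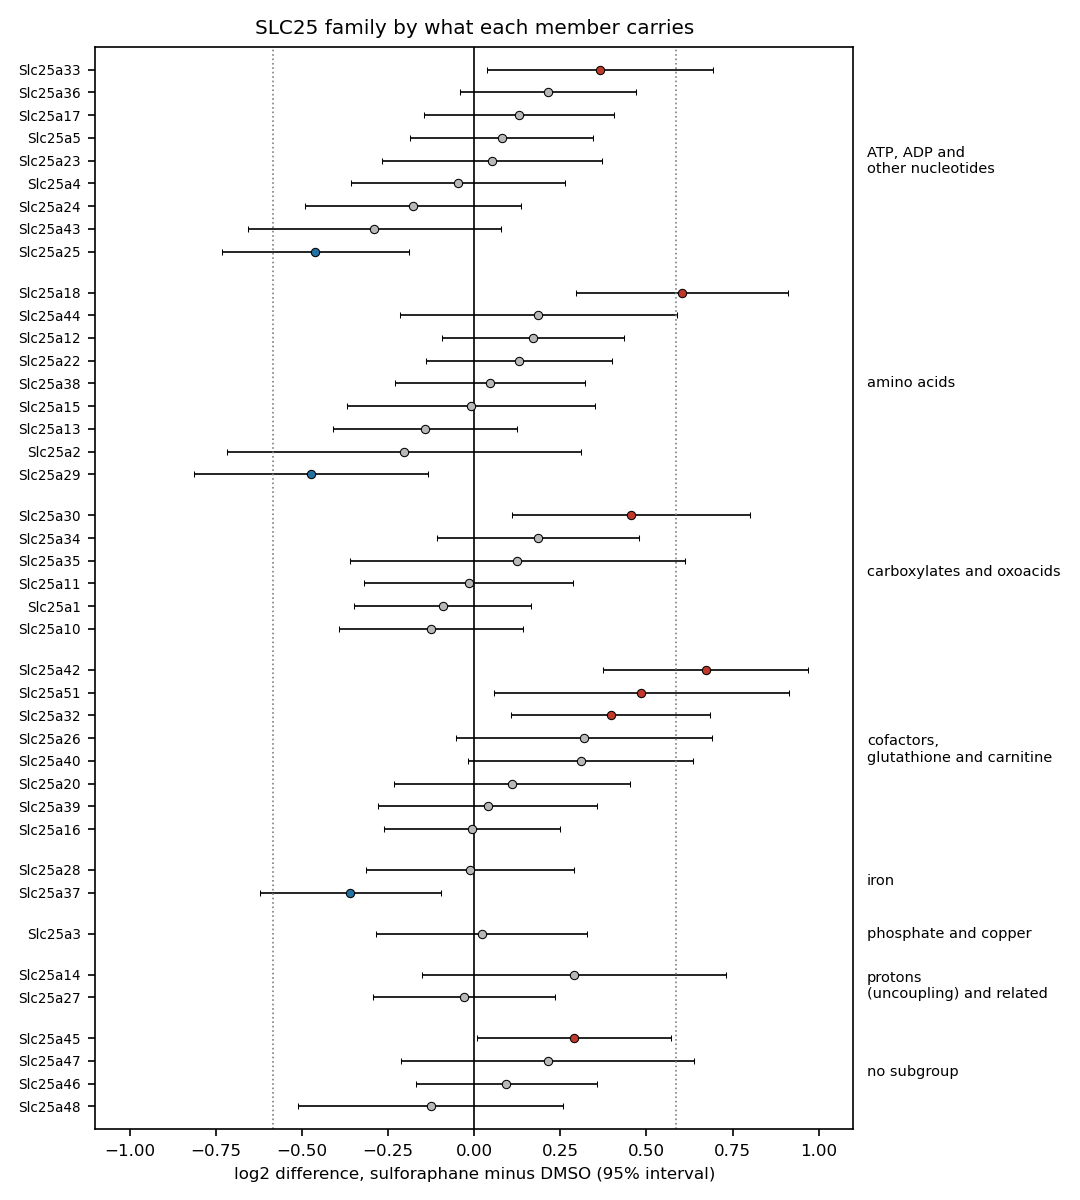
Log2 difference, sulforaphane (SFN) minus DMSO, of each of the 41 mitochondrial SLC25 carriers by the cargo of the carrier, a point per gene with its 95% interval, red and blue for an unadjusted p under 0.05 (higher and lower) and dotted lines at 1.5-fold. Of the 8 carriers of cofactors, glutathione and carnitine 7 lie above 0, while the carriers of nucleotides and of amino acids lie on both sides, from -0.47 to 0.60.

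Mitochondrial nucleotide carriers lay on both sides of 0. Slc25a25, a calcium-regulated exchanger of ATP-Mg for phosphate, read 6.22 and 6.18 with DMSO and 5.67 and 5.80 with sulforaphane, a difference of -0.46 ± 0.11 (adjusted p = 0.188). Slc25a33, a pyrimidine nucleotide carrier, was the opposite, with 6.64 and 6.82 against 6.98 and 7.21 and a difference of 0.37 ± 0.13 (adjusted p = 0.34). The ADP/ATP carriers Slc25a5 and Slc25a4 differed by 0.08 and -0.05, and for both the interval lay inside 1.5-fold. Of the 9 members of this subgroup 5 were above 0, with a median of 0.05.

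Amino acid carriers of the matrix were split in the same way, 5 above 0 and 4 below. Slc25a29, which moves arginine and lysine, read 4.07 and 3.87 with DMSO and 3.37 and 3.62 with sulforaphane, a difference of -0.47 ± 0.14 (adjusted p = 0.254), against the higher value of the glutamate carrier Slc25a18. The other glutamate carrier, Slc25a22, differed by 0.13. The aspartate-glutamate exchangers of the malate-aspartate shuttle went in opposite directions without overlap, Slc25a12 by 0.17 and Slc25a13 by -0.14. Slc25a38, which supplies glycine for heme synthesis, differed by 0.05.

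The mitochondrial iron importer Slc25a37 read 8.58 and 8.53 with DMSO and 8.16 and 8.24 with sulforaphane, a difference of -0.36 ± 0.11 (adjusted p = 0.259), without overlap. Its close relative Slc25a28 differed by -0.01 with overlap. Slc25a30 read 7.73 and 8.06 against 8.35 and 8.35 (0.46 ± 0.14, adjusted p = 0.266), and Slc25a45 8.96 and 9.12 against 9.36 and 9.30 (0.29 ± 0.12, adjusted p = 0.379). Both were higher in each sulforaphane array than in each DMSO array. The citrate carrier Slc25a1 (-0.09), the dicarboxylate carrier Slc25a10 (-0.13), the oxoglutarate-malate carrier Slc25a11 (-0.02) and the phosphate carrier Slc25a3 (0.02) were all within 0.13 of 0. The 29 SLC25 members that are not among the strongest or brightest of the class lay between -0.29 (Slc25a43) and 0.32 (Slc25a26).

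Vitamin, cofactor and heme carriers of other membranes held 5 members with an unadjusted p under 0.05 among 11, or 45.5% against 13.0% of all genes, 4 of them higher. With a replicate block this count was 3, against 11.6% of all genes at that p. It was also lower than 5 with any single array left out, while the share of all genes at that p ran from 7.07% to 19.5%. The class median was 0.050 without DMSO replicate 1 and 0.206 without DMSO replicate 2. It was 0.167 without sulforaphane replicate 1 and 0.070 without sulforaphane replicate 2. Beside Slc23a3, the thiamine importer Slc19a2 read 7.27 and 7.60 with DMSO and 7.78 and 8.16 with sulforaphane, a difference of 0.54 ± 0.18 (adjusted p = 0.304). Slc33a1, which brings acetyl-CoA into the endoplasmic reticulum, read 6.04 and 6.23 against 6.47 and 6.48 (0.34 ± 0.12, adjusted p = 0.316). In both genes the groups were apart, though the 2 arrays of each group for Slc19a2 differed by more than 0.3.

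The lysosomal carrier Slc49a4 read 7.80 and 7.64 with DMSO and 8.02 and 8.0 with sulforaphane (0.29 ± 0.11, adjusted p = 0.379). Slc23a2, the sodium-coupled ascorbate importer of most cells, was lower: 9.41 and 9.46 against 9.16 and 9.10, a difference of -0.30 ± 0.11 (adjusted p = 0.321). Another probe set of Slc23a2, also above the filter, differed by 0.08, so the probe sets of this gene disagreed in sign. The remaining members overlapped between the groups, among them the riboflavin importer Slc52a3 (-0.05), the biotin and pantothenate importer Slc5a6 (0.16), the folate carriers Slc46a1 (0.06) and Slc19a1 (0.01) and the carnitine importer Slc22a5 (0.08).

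Amino acid and peptide carriers held 2 members of 38 at an unadjusted p under 0.05, or 5.26% against 13.0% of all genes, and for 34 of the 38 the interval lay inside 1.5-fold (89.5%, against 74.1%). Slc1a4, an exchanger of alanine, serine and cysteine, read 6.03 and 5.94 with DMSO and 6.39 and 6.56 with sulforaphane, a difference of 0.49 ± 0.12 (adjusted p = 0.188). Slc1a6, a glutamate carrier known from neurons, lay at the filter with 3.0 and 3.21 against 2.73 and 2.77 (-0.35 ± 0.12, adjusted p = 0.308), and it passed the filter only through its DMSO arrays. Its relative Slc1a5, the main glutamine exchanger, read 9.64 and 9.72 against 9.72 and 9.72 and differed by 0.04.

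The carriers of large neutral and cationic amino acids that pair with a heavy chain differed little. Slc3a2, the heavy chain of CD98, read 11.43 and 11.44 with DMSO and 11.63 and 11.67 with sulforaphane, separate but by only 0.22 ± 0.11 (adjusted p = 0.463). Its light chains among the members included Slc7a5, the leucine exchanger of activated leukocytes (10.81 and 11.13 against 11.07 and 11.03, a difference of 0.08). Others were Slc7a8 (-0.23, without overlap), Slc7a6 (-0.19) and Slc7a7 (-0.03). None of the 9 tested SLC7 members had an interval reaching 1.5-fold. The SLC7 genes set aside by name did, Slc7a2 (interval -0.88 to -0.36) and Slc7a11 (0.14 to 0.69). Slc7a4, an SLC7 relative without established transport activity, read 3.38 and 3.35 against 3.08 and 3.20 (-0.23). The heavy-chain-independent leucine carrier Slc43a2 read 9.17 and 9.46 against 9.60 and 9.68, a difference of 0.32 ± 0.14 with an interval from -0.01 to 0.66.

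Carriers that empty or sense the lysosome were measured as well. The proton-coupled amino acid carriers of the Slc36 family were above 0 in 3 of 3 members, all without overlap (24.0% of all genes were higher without overlap): Slc36a1 by 0.13, Slc36a2 by 0.23 and Slc36a4 by 0.22. The lysosomal cationic amino acid exporter Slc66a1 differed by 0.22, also without overlap, and the arginine sensor Slc38a9 by 0.07 with overlap. The endolysosomal peptide and histidine carriers Slc15a3 and Slc15a4, the latter needed for Toll-like receptor signalling in endosomes, differed by -0.03 and -0.10. Slc38a2, the amino acid importer induced by starvation, read 10.55 and 10.22 against 10.40 and 10.45 and differed by 0.04, with the DMSO arrays on either side of the sulforaphane arrays. Over the 31 other amino acid carriers, differences lay between -0.19 and 0.24.

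Among carriers of organic cations, anions and amines, 4 of 25 had an unadjusted p under 0.05 (16%, against 13.0% of all genes): Slc22a4 and Slc18a1 higher, Slc6a12 and Slc17a7 lower. Slc17a7, a vesicular glutamate carrier, read 3.37 and 3.16 with DMSO and 2.93 and 2.74 with sulforaphane (-0.43 ± 0.13, adjusted p = 0.265). Its sulforaphane mean of 2.84 was below the filter, so it was tested only through its DMSO values. Slc18a1, a vesicular monoamine carrier, read 4.89 and 5.07 against 5.35 and 5.28 (0.34 ± 0.12, adjusted p = 0.323). A related vesicular monoamine carrier, Slc18a2, differed by 0.19 and the serotonin importer Slc6a4 by -0.22, each without overlap. Mast cells and basophils store amines, and 7 of their 8 markers lay below 0, with a median difference of -0.069. Hdc and Gata2 differed by -0.61 and -0.57 and the other 6 by -0.11 (Ms4a2) to 0.015 (Cpa3); the part of these cells in the carrier values was not tested.

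Slc22a4 lies in a family whose other tested members did not share its difference. The carnitine carrier Slc22a21 read 5.20 and 5.50 with DMSO and 5.09 and 4.95 with sulforaphane, a difference of -0.33 ± 0.14 (adjusted p = 0.407). Slc22a5, which also carries carnitine but was sorted with the vitamin and cofactor carriers, differed by 0.08. Over 11 tested Slc22 members 6 lay above 0 and 5 below, with a median of 0.02. Slc22 members below the filter were not tested, and their differences ran from -0.20 (Slc22a7) to 0.58 (Slc22a13b, without overlap). Likewise Slc6a12 stood apart in value from the taurine importer Slc6a6 (10.86 and 10.95 against 11.03 and 10.92, 0.07) and the creatine importer Slc6a8 (0.14), while Slc6a13, another GABA carrier, differed by -0.20. The sialic acid exporter of lysosomes, Slc17a5, read 9.82 and 10.04 against 10.19 and 10.19, without overlap (0.26 ± 0.12, adjusted p = 0.444). The other 18 of this class lay between -0.22 and 0.24.

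The phosphate and sulfate carriers were split between the related importers Slc20a1 and Slc20a2. Slc20a2 read 7.03 and 6.64 with DMSO and 7.17 and 7.16 with sulforaphane, a difference of 0.33 ± 0.15 (adjusted p = 0.439), opposite to the -0.68 of Slc20a1. The groups did not overlap in either gene, although the DMSO arrays of Slc20a2 differed by more than 0.3. The sulfate carrier Slc26a2 differed by 0.02. Slc26a1 read 2.83 and 2.97 against 2.94 and 3.43 (0.28), with overlap, and 3 of its arrays were near the filter. Its DMSO mean was below the filter, so it was tested only through its sulforaphane values.

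Carriers of inorganic ions and protons held 4 members of 32 at an unadjusted p under 0.05 (12.5%, against 13.0% of all genes), 2 in each direction. Slc26a11, an anion exchanger, read 4.71 and 4.91 with DMSO and 5.45 and 5.18 with sulforaphane, a difference of 0.51 ± 0.14 (adjusted p = 0.238). Slc12a9, of the cation-chloride family, read 6.32 and 6.32 against 6.57 and 6.65 (0.29 ± 0.11, adjusted p = 0.341). Both were higher in each sulforaphane array.

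The lower ion carriers were the chloride-bicarbonate exchanger Slc4a3 and the magnesium carrier Slc41a1. Slc4a3 read 4.0 and 3.78 with DMSO and 3.37 and 3.62 with sulforaphane (-0.39 ± 0.14, adjusted p = 0.328). Slc41a1 read 8.32 and 8.26 against 7.93 and 8.05 (-0.30 ± 0.11, adjusted p = 0.344), while a second magnesium carrier, Slc41a2, differed by 0.18. Slc41a1 and Slc41a2 were each separate between the groups, in opposite directions. The iodide importer Slc5a5, whose sulforaphane mean of 2.89 was below the filter, read 3.48 and 3.06 against 2.86 and 2.91 (-0.39 ± 0.16, adjusted p = 0.389). The Golgi sodium-proton exchanger Slc9a8 differed by 0.04, the endosomal exchangers Slc9a9 by -0.02 and Slc9a7 by -0.03, the chloride-bicarbonate exchanger Slc4a2 by -0.04 and the sodium-calcium exchanger Slc8a1 by -0.04. The other 25 lay between -0.24 and 0.23.

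All 6 nucleoside and nucleobase carriers lay below 0, although 4 of them by less than 0.1. Of the 4 tested members of the Slc29 family 1 lay above 0 (0.13), and it was sorted into another class. Slc29a2, an equilibrative nucleoside carrier, read 6.07 and 6.20 with DMSO and 5.51 and 5.78 with sulforaphane, a difference of -0.49 ± 0.13 (adjusted p = 0.227). Slc28a2, a sodium-coupled importer of purine nucleosides, read 3.52 and 3.79 against 3.24 and 3.25 (-0.42 ± 0.13, adjusted p = 0.274). In both, each sulforaphane array was below each DMSO array. The main equilibrative carrier Slc29a1 differed by -0.08 (0.046 as the mean of its probe sets), the lysosomal Slc29a3 by -0.01, the purine nucleobase carrier Slc43a3 by -0.02 and Slc28a3 by -0.02. The class median was -0.054 against 0.018 over all genes, and after median centring Slc29a3 (0.0080) and Slc43a3 (0.0022) lay above 0.

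Sugar carriers had a median difference of -0.0035. Slc45a4 read 6.41 and 6.31 with DMSO and 6.08 and 6.05 with sulforaphane, a difference of -0.29 ± 0.11 (adjusted p = 0.345), and it was the only one of 13 with an unadjusted p under 0.05 (7.69%, against 13.0% of all genes). Slc2a6, a hexose carrier of lysosomal membranes in macrophages, read 10.66 and 10.87 against 10.53 and 10.57 (-0.22 ± 0.12, adjusted p = 0.524), without overlap. The high-affinity glucose importer Slc2a3 differed by 0.13 with overlap and an interval of -0.30 to 0.56. Slc2a4, the insulin-responsive glucose importer, differed by -0.23 with overlap at a level close to the filter. The glucose-6-phosphate carriers of the endoplasmic reticulum, Slc37a2 and Slc37a4, each differed by 0.01, Slc37a1 by -0.17, and Slc45a3 by -0.17. Slc50a1 was at 0.00, and for 12 of 13 the interval lay inside 1.5-fold.

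Monocarboxylate and dicarboxylate carriers were 4, of which Slc16a1, the lactate and pyruvate carrier of most cells, read 8.72 and 8.90 with DMSO and 8.76 and 9.0 with sulforaphane. The groups overlapped and differed by 0.08 ± 0.14. Slc16a8 read 3.08 and 3.20 against 2.85 and 2.91 (-0.26 ± 0.11, adjusted p = 0.405), with a sulforaphane mean of 2.88 below the filter, while Slc16a7 (0.02) and the dicarboxylate importer Slc13a3 (-0.03) overlapped. The fatty acid carriers of the Slc27 family had no member with an unadjusted p under 0.05: Slc27a6 differed by 0.18, Slc27a3 by -0.17, Slc27a1 by 0.09 and Slc27a4 by -0.02, and overlap was absent only in Slc27a6.

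The nucleotide sugar carriers supply the Golgi with activated sugars for glycosylation. Slc35a1, which carries CMP-sialic acid, read 4.87 and 5.23 with DMSO and 5.48 and 5.33 with sulforaphane, a difference of 0.36 ± 0.15 (adjusted p = 0.406). Slc35a2, for UDP-galactose, differed by 0.11 without overlap, and Slc35a3, for UDP-N-acetylglucosamine, by 0.00 with overlap. Among iron, copper and urea carriers, the groups overlapped in 5 of 5: the iron importer Slc11a2 differed by -0.01, the copper importer Slc31a1 by 0.06 and its relative Slc31a2 by -0.12, and the urea channels Slc14a1 and Slc14a2 by -0.11 and -0.18.

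For 14 members no substrate was assigned. Apart from Slc16a9 they lay between -0.17 and 0.23: Slc35a5 was at 0.23 without overlap, Slc10a4 at -0.17, Slc10a7 at 0.18, Slc16a14 at -0.12 and Slc35a4 at 0.05. Another 5 symbols of the same form are not transporters. Of these, the pseudogene Slc2a4rg-ps read 3.54 and 3.44 with DMSO and 4.0 and 3.76 with sulforaphane (0.39 ± 0.13, adjusted p = 0.289). The scaffold proteins Slc9a3r1 and Slc9a3r2, which anchor carriers to the cytoskeleton, differed by -0.14 and -0.20, Slc4a1ap by 0.14 and Slc7a6os by 0.05.

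The 7 carriers set aside by name include the gene with the clearest value. Slc40a1, the only known iron exporter, rose from 7.98 and 8.06 with DMSO to 9.81 and 9.82 with sulforaphane, a difference of 1.79 ± 0.11 (adjusted p = 0.0136 by limma). The cystine importer Slc7a11 read 10.85 and 10.91 against 11.36 and 11.23 (0.42 ± 0.11, adjusted p = 0.221), and the arginine importer Slc7a2 9.50 and 9.45 against 8.84 and 8.87 (-0.62 ± 0.11, adjusted p = 0.0975). Slc11a1, a metal carrier of phagosomes, differed by 0.38 and the heme carrier Slc48a1 by 0.30. The glucose importer Slc2a1 differed by -0.21 and the lactate exporter Slc16a3 by -0.28.

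Transporters named outside the pattern gave a like picture. Of 79 genes listed, such as the Mfsd, Slco and Slc35 letter families, 51 were tested; 0 passed the adjusted threshold by limma, 9 had an unadjusted p under 0.05 (17.6%, against 13.0% of all genes), and their median difference was 0.039. The 5 higher ones were Slc35f6 (0.44), Mfsd11 (0.44), the lysosomal cystine exporter Ctns (0.38), Mfsd9 (0.38) and Mfsd3 (0.31). The lower ones were Mfsd2a, a carrier of lysophospholipids (5.08 and 5.45 against 4.27 and 4.66, a difference of -0.80 ± 0.19, adjusted p = 0.18), the organic anion carriers Slco4a1 (-0.49) and Slco3a1 (-0.43), and Mfsd7a (-0.36). Of 14 genes of the sodium pump, which keeps the gradient that many carriers use, 7 were tested. Fxyd6 (-0.42) alone had an unadjusted p under 0.05 (14.3%, against 13.0% of all genes). Its sulforaphane mean of 2.78 was below the filter, so it was tested only through its DMSO values. Of 15 partner proteins of carriers 11 were tested and none reached that p; Bsg and Emb, which escort the lactate carriers to the membrane, differed by -0.03 and 0.02.

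The 100 solute carriers below the filter were not tested. Of these 34 lay above 0 and 66 below, and 0 were 1.5-fold apart without overlap. In 11 members that passed, the mean of one group was itself below the filter, in 5 that of DMSO and in 6 that of sulforaphane. Of 11 members with several probe sets of their own, 3 (Slc16a9, Slc23a2 and Slc29a1) had a probe set of the opposite sign, and that of Slc23a2 was above the filter.

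Start-site windows were available for 160 of the 205 members and were searched on both strands for 4 motifs chosen after the data were seen. The antioxidant response element core TGACNNNGC, the sequence bound by NRF2, was in 32 of the 160 (20.0%), against 16.6% of the genes tested and 12.4% of all 32851 windows of this length. It was in 2 of the 13 higher members with an unadjusted p under 0.05 that had a window and in 2 of the 11 lower ones. Among the higher members it read TGACTCAGC at position -160 from the start of Slc49a4, and GCGACGTCA, on the other strand, at -32 in Slc25a33. Among the lower members it read TGACTCCGC at -100 and, on the other strand, GCGCGGTCA at -31 in Slc25a25, and GCTGCGTCA at -165 of the second Slc20a1 window. Matches thus stood beside carriers that were higher and carriers that were lower.

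The E-box CACGTG, read by MYC, MITF and TFEB among other factors, was in 29 of 160 members (18.1%, against 11% of genes tested and 7.15% of windows). It was in 5 of 13 higher members and 2 of 11 lower ones. In Slc22a4 it lies at -228, and in the first window of Slc20a1 at -175 and -22. The amino acid response element core TGATGNAA, known from genes induced by ATF4, was in 7 members (4.38%, against 2.95% of genes tested and 3.97% of windows), 3 of them among the 13 higher ones and 0 among the 11 lower ones. Those were TGATGGAA at -160 in Slc23a3, TTGCATCA on the other strand at -4 in Slc1a4, and TGATGTAA at -203 in Slc49a4, where it overlaps the E-box at -207. The NF-kB site, here GGGA, any 2 bases and TTCC, was in 3 members (1.88%, against 1.76% of genes tested and 1.47% of windows), among them Slc6a12 with GGAAAATCCC at -133. A match describes the letters in the window and is not evidence of a bound site.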

How the data were processed

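RNA of 4 samples (2 DMSO, 2 sulforaphane) was hybridised to Affymetrix arrays as biotin-labelled cRNA, per the labels' protocols. The deposited values are log2 and come from RMA, which the authors ran under R 2.15.1 according to the submitters' processing notes. The log base is unnamed; RMA and the size of the values gave 2. RMA quantile-normalizes the arrays, so a shift shared by all genes is lost. Of 41345 probe sets, 25335 were annotated, 23521 with 1 symbol and 1814 with several; 16010 were unlisted. Only probe sets with 1 symbol were used. For arrays, their number limits the precision. Sulforaphane was compared with DMSO with limma 3.58.1 (lmFit, eBayes; 2 residual and 4.02 prior degrees of freedom) in R 4.3.3 over 14652 genes, Benjamini-Hochberg adjustment, threshold 0.05, two-sided, without a replicate block. An exact permutation test of 2 against 2 cannot go below 0.333. The procedure was tested on simulated data. Members, substrate classes, lists and motifs were chosen with earlier results of these data known. Named were members past the threshold or beyond 1.5-fold, up to 5 per class by p, the 2 brightest per class, Slc3a2 and the genes left out by name; further members were chosen by their role after their values were seen. The labels name no pairing of samples by replicate number. Deviations from the group means correlated by -0.081 between same-numbered arrays, which cannot exclude a pairing. Alternatives were other filters, centring, a second quantile normalization, averaged probe sets, a replicate block, an intensity trend and each array left out. Sequences are from RefSeq, GRCm38.p6.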

Additional observations from a re-analysis of the deposited data

How the results depend on the processing

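Of 77 named carriers, 55 kept their direction in every one of the 11 settings that tested them. The count of solute carriers with an adjusted p under 0.05, 0 as reported, was 1 with the 60th percentile filter, where fewer genes were tested. It was 2 after a second quantile normalization and 4 with an intensity trend, and the cause was not tested for this pair. The shares of all genes were 1.3%, 0.724% and 1.7% in turn, against 0.130% as reported. A replicate block gave 0 carriers at that adjusted p. At an unadjusted p under 0.05 it gave 15 higher and 11 lower (6.31% and 5.31% of all genes). Among them were 9 SLC25 carriers in place of 10 and 3 vitamin carriers in place of 5 (11.6% of all genes at that p). With single arrays left out, the share of all genes at that p was 7.07% to 19.5%. By direction it was 3.4% to 12.1% for higher and 3.5% to 7.39% for lower genes. Beyond 1.5-fold without overlap it was 1.37% to 3.29% for higher and 1.77% to 2.18% for lower genes. Leaving out single arrays gave 8 to 25 higher and 3 to 15 lower carriers at an unadjusted p (8 lower with the 60th percentile filter), 4 to 8 higher (3 with the 60th percentile filter) and 1 to 5 lower carriers beyond 1.5-fold, 5 to 16 SLC25 carriers and 1 to 4 vitamin carriers. Class medians with single arrays left out were 0.0014 to 0.039 for amino acids (-0.0041 without a filter, 0.0062 after a second quantile normalization), -0.073 to 0.044 for inorganic ions, -0.084 to -0.035 for iron, copper and urea (-0.0074 with the 60th percentile filter), 0.057 to 0.115 for mitochondrial carriers (0.031 after a second quantile normalization), 0.155 to 0.463 for mitochondrial cofactor carriers, -0.0054 to 0.126 for no assigned substrate, -0.052 to 0.143 for symbols that are not transporters (-0.044 without a filter, -0.046 at the 60th percentile), -0.121 to -0.042 for nucleosides (-0.13 with averaged probe sets), -0.091 to -0.011 for organic cations (-0.035 at the 60th percentile, -0.033 after median centring, -0.021 after a second quantile normalization), 0.014 to 0.186 for phosphate (0.017 without a filter, 0.020 at the 60th percentile), -0.099 to -0.058 for sugars and 0.050 to 0.206 for vitamins (0.0033 after a second quantile normalization). Carriers whose sign turned with an array left out ranged over -0.049 to 0.40 (Slc10a7), -0.083 to 0.068 (Slc11a2), -0.091 to 0.039 (Slc13a3), -0.217 to 0.0049 (Slc14a1), -0.494 to 0.142 (Slc14a2), -0.043 to 0.196 (Slc16a1), -0.054 to 0.093 (Slc16a7), -0.132 to 0.10 (Slc25a11), -0.029 to 0.070 (Slc26a2), -0.345 to 0.0010 (Slc27a3), -0.176 to 0.135 (Slc27a4), -0.123 to 0.073 (Slc28a3), -0.038 to 0.013 (Slc29a3), -0.084 to 0.205 (Slc31a1), -0.058 to 0.062 (Slc35a3), -0.0066 to 0.10 (Slc35a4), -0.053 to 0.017 (Slc43a3), -0.096 to 0.089 (Slc50a1), -0.216 to 0.115 (Slc52a3), -0.081 to 0.237 (Slc7a5) and -0.052 to 0.143 (Slc7a6os). Median centring turned Slc11a2 (0.013), Slc25a11 (0.0047), Slc27a4 (7.12e-05), Slc29a3 (0.0080), Slc43a3 (0.0022) and Slc50a1 (0.017); a second quantile normalization turned Slc16a7 (-0.053), Slc26a2 (-0.020), Slc28a3 (0.0044) and Slc35a3 (-0.076), and averaging probe sets Slc29a1 (0.046). The 2 arrays per group limit the precision, and carriers near the filter have little signal above background.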
